A study of Homo sapiens with 3 samples.

Results

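The BCL2 family of apoptosis regulators was examined in RNA-seq data from Caki-1 cells, a human clear cell renal cell carcinoma line, after depletion of RBCK1. The members were taken by gene symbol, and all 10 of them (BCL2, BCL2L1, MCL1, BAX, BAK1, BID, BBC3, PMAIP1, BCL2L11 and BIK) were found among the 44591 genes of the table. RBCK1, also called HOIL-1, is a subunit of the linear ubiquitin ligase complex, and the study asked how its loss acts on p53 in renal cancer cells. Cells received si-Control, si-RBCK1 #1 or si-RBCK1 #2 (labelled si-HOIL-1#1 and si-HOIL-1#2), and RNA was taken 48 h after transfection. The siRNA dose in the general transfection methods is 10 nmol/L. With 1 library per condition, none of the differences could be checked against replicates, and the siRNAs, being separate reagents, were kept apart. A transient knockdown in 1 cell line was sampled at 1 time, and the si-Control library stands in both comparisons.

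BCL2 family proteins control whether the outer mitochondrial membrane stays intact. The effectors BAX and BAK1 form pores that release cytochrome c, pro-survival members such as BCL2, BCL2L1 (BCL-XL) and MCL1 hold the effectors in check, and BH3-only members either bind the pro-survival proteins or activate the effectors directly. BBC3 (PUMA), PMAIP1 (NOXA) and BAX are well-known transcriptional targets of p53, and renal carcinoma cells are known to rely on BCL2L1 and MCL1 for survival. Much of the control of these proteins is exerted after transcription, and none of that is measured by RNA-seq.

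The siRNA sense strands are shown first because a guide strand can also act on other transcripts through its seed, bases 2 to 8. Capitals mark bases 12 to 18 of the sense strand, the letters that a transcript must hold to pair with the guide's seed.
si-RBCK1 #1: ggtgcaccttcATCAACAa
si-RBCK1 #2: ggattaccagcGATTTCTa
Both match the coding part of the longest RBCK1 coding transcript of GENCODE v29, from base 1307 to 1325 and from base 1749 to 1767 of 2774. The full 19 bases matched 0 of the 10 members. The 7-base site of si-RBCK1 #1 was present in the longest coding transcript of BCL2, BAK1 and BCL2L11, 3 of 10 members, against 22.3% of 19669 transcripts. The 7-base site of si-RBCK1 #2 was present in BCL2, BID and PMAIP1, 3 of 10 members, against 25.9%. A match is a description of the letters and does not show binding.

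Sites in BCL2 and PMAIP1 are printed with 10 bases on each side, because these were the members lower by the largest ratios in at least 1 si-RBCK1 library. Capitals mark the site, and positions are on GRCh38.
BCL2 with the seed of si-RBCK1 #1, 3′ UTR, chr18:63127554-63127580, minus strand: tccagggatgATCAACAgggcagtgtg
BCL2 with the seed of si-RBCK1 #1, 3′ UTR, chr18:63123991-63124017, minus strand: caaacatcctATCAACAacaaggttgt
BCL2 with the seed of si-RBCK1 #2, coding, chr18:63128698-63128724, minus strand: gcctctgtttGATTTCTcctggctgtc
PMAIP1 with the seed of si-RBCK1 #2, 3′ UTR, chr18:59903277-59903303, plus strand: actcagtgttGATTTCTtcggtcacta
BCL2 thus held seed letters of both siRNAs and PMAIP1 those of si-RBCK1 #2. Over 2126 genes with a site of si-RBCK1 #2 and none of si-RBCK1 #1, the median log2 ratio of si-RBCK1 #2 to si-RBCK1 #1 was -0.0011. It was 0.015 over 1553 genes with a site of si-RBCK1 #1 alone and 0.0065 over 5928 genes with neither. The part of these sites in the values below was not tested.

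The si-Control library was scaled by 36926834 reads, and the si-RBCK1 #1 and #2 libraries by 40442939 and 36344428 reads. Values given in a row below follow this order. RBCK1 was at 33.3, 9.97 and 12.3 RPKM (reads scaled by gene length and library total) in these libraries, and its scaled reads were 29.9% and 36.8% of si-Control. Of 10 renal epithelial and carcinoma markers, 5 were at 1 RPKM or more in every library, PAX8 and VIM among them, while PAX2, CA9 and EPCAM stayed below 1 RPKM in all. They summed to 972, 1932 and 1939 RPKM, most of it VIM. Of 7 markers of other cell types, CD68 and COL1A1 were at 1 RPKM or more in every library and CD3E was listed at 0 in all, and the summed level was 46.5, 54.3 and 56.7 RPKM. The part of these marker levels in the results below was not tested. In bulk RNA, fewer cells that express a gene and less of its RNA per cell cannot be told apart.

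Levels per length spread widely over the family. With si-Control the order was BAK1 (as listed), MCL1, BAX, PMAIP1, BCL2L1, BID, BBC3, BCL2, BCL2L11 and BIK. The counting intervals of neighbours overlapped for PMAIP1 and BCL2L1 (40.4 and 38.9 RPKM) and for BCL2 and BCL2L11 (2.00 and 1.73 RPKM). In both si-RBCK1 libraries BCL2L1 stood above PMAIP1, BBC3 above BID and BCL2L11 above BCL2. The only overlaps of neighbours there were BCL2 and BIK with si-RBCK1 #1 (0.964 and 0.701 RPKM) and BBC3 and BID with si-RBCK1 #2 (16.8 and 15.3 RPKM). Thus MCL1 was the leading pro-survival transcript in every library and BCL2 itself was near the detection filter. The intervals (95%, exact) rest on read numbers recovered from the RPKM values and cover counting error only.

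**Figure D1:**
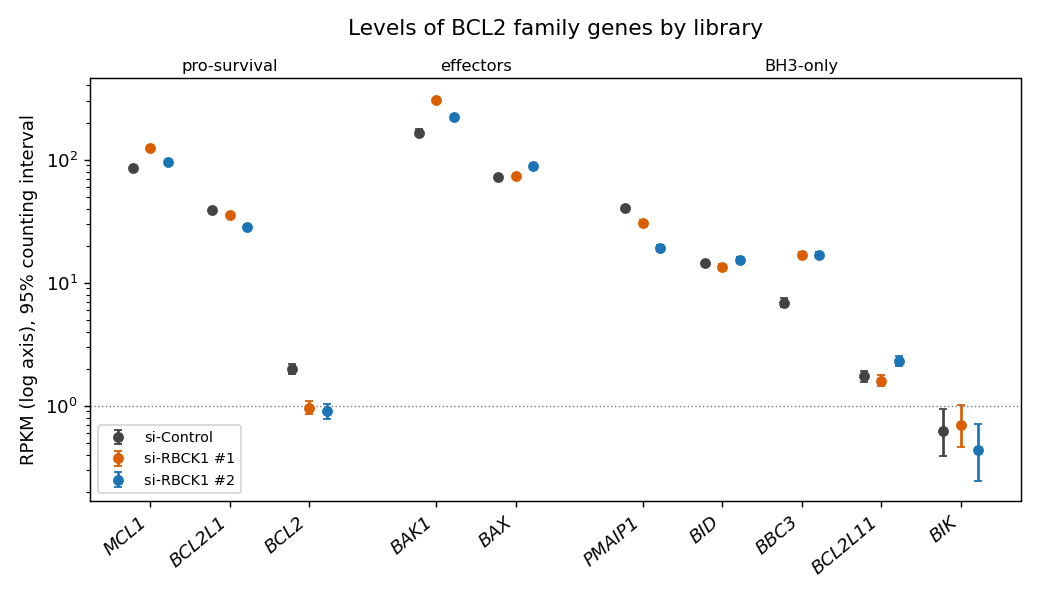
RPKM of the 10 BCL2 family genes on a log axis, grouped by role, with 1 point per library (si-Control, si-RBCK1 #1, si-RBCK1 #2) and bars for the 95% counting interval. The dotted line marks 1 RPKM. MCL1 was between 85.4 and 123 RPKM, BCL2 between 0.902 and 2.00 RPKM and BIK between 0.433 and 0.701 RPKM, and the level of BAK1, shown as listed, is uncertain.

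Differences from si-Control are given as log2 ratios, computed for each si-RBCK1 library on RPKM + 1, which understates the change of low genes. The ratio of reads alone follows with its interval. Among the pro-survival members the 3 transcripts took different courses, MCL1 being higher and BCL2L1 and BCL2 lower in both si-RBCK1 libraries.

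MCL1, a short-lived pro-survival protein that binds BAK1 and is itself bound by NOXA, lies on chr1:150547027-150552214 (minus strand, hg19). The si-Control library had 12875 reads of it (85.4 RPKM), si-RBCK1 #1 had 20391 reads (123 RPKM) and si-RBCK1 #2 had 14192 reads (95.6 RPKM). The log2 ratios were 0.53 and 0.16, with intervals on reads of 0.50 to 0.56 and 0.13 to 0.20. Both si-RBCK1 libraries were above si-Control by more than counting error, and si-RBCK1 #2 was below si-RBCK1 #1 by 0.37 on the log2 scale of reads, with an interval of -0.40 to -0.34. MCL1 is known to be spliced into a long pro-survival and a short pro-apoptotic form, which a gene-level value does not separate.

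BCL2L1, whose long form BCL-XL binds and restrains BAX and BAK1, lies on chr20:30252255-30311802 (minus strand, hg19). Its 4836, 4817 and 3476 reads gave levels of 38.9, 35.4 and 28.4 RPKM. The log2 ratios were -0.13 and -0.44, with intervals on reads of -0.19 to -0.08 and -0.52 to -0.39. Both si-RBCK1 libraries were thus lower, si-RBCK1 #2 more so, and the reads of si-RBCK1 #2 over si-RBCK1 #1 gave -0.32 (-0.38 to -0.25). The gene overlaps the long noncoding RNA ABALON on the other strand, which was at 0.868, 1.23 and 1.52 RPKM, far below BCL2L1 itself, and a second antisense RNA was between 0.579 and 0.809 RPKM. Here too the long and the short, pro-apoptotic form share 1 value.

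BCL2, the founding pro-survival member, lies on chr18:60790579-60986613 (minus strand, hg19). The si-Control library had 488 reads of it (2.00 RPKM), against 258 reads (0.964 RPKM) in si-RBCK1 #1 and 217 reads (0.902 RPKM) in si-RBCK1 #2. It passed the filter of a mean of 1 RPKM only through the si-Control library, so its entry among the genes compared depended on the difference. The log2 ratios on RPKM + 1 were -0.61 and -0.66. On reads alone, where no pseudocount shrinks a low gene, 48.3% of the si-Control amount was left in si-RBCK1 #1, a log2 ratio of -1.05 (-1.27 to -0.83), and 45.2% in si-RBCK1 #2, a log2 ratio of -1.15 (-1.38 to -0.91). The si-RBCK1 libraries differed from each other by -0.10 (-0.36 to 0.17), an interval that holds 0.

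The effectors were both higher by listed values, and BAK1 had the larger log2 ratio in each si-RBCK1 library. With si-RBCK1 #1, BAX was below si-Control when totals were made equal. BAX, which moves from the cytosol to mitochondria on activation, lies on chr19:49458117-49465055 (plus strand, hg19). Its 3462, 3913 and 4229 reads gave levels of 71.8, 74.1 and 89.2 RPKM. These reads belong to the smallest length, 1305 nt, while the exons of BAX in GENCODE v29 cover 2587 nt. The log2 ratio with si-RBCK1 #1 was 0.04, with an interval on reads of -0.02 to 0.11 that holds 0, and it became -0.011 with libraries scaled to equal total RPKM. The log2 ratio with si-RBCK1 #2 was 0.31 (0.25 to 0.38), and si-RBCK1 #2 exceeded si-RBCK1 #1 by 0.27 (0.20 to 0.33). BAX was thus above si-Control beyond counting error with si-RBCK1 #2.

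BAK1, the effector that sits in the mitochondrial outer membrane, lies on chr6:33540323-33548070 (minus strand, hg19). The listed levels were 166, 306 and 220 RPKM, which gave log2 ratios of 0.88 and 0.41. These levels are uncertain. The smallest gene length that turned all 3 values into whole reads was 731 nt, with 4476, 9044 and 5844 reads, and all of them are multiples of 4. The exons of BAK1 in GENCODE v29 cover 2212 nt, close to 3 times 731 nt (2193 nt). With the factor of 4 removed and the longer length, the levels would be 13.8, 25.5 and 18.3 RPKM, and the listed values are 12 times these. A common factor of at least 4 was also present in 199 of 9141 genes with over 300 reads (2.18%), so the factor by itself does not mark a row as altered. A factor common to all libraries leaves the ratio as it is: on 1119, 2261 and 1461 reads the log2 ratios were 0.88 (0.78 to 0.99) and 0.41 (0.29 to 0.52), and si-RBCK1 #2 was below si-RBCK1 #1, at -0.48 (-0.57 to -0.38). The processed pseudogene BAK1P1 was at 0.854, 0.966 and 0.932 RPKM, little beside BAK1 on either scale, and BAK1P2 was at 0.0261 RPKM or less.

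RefSeq promoter windows (GRCh38.p14, 250 bases before to 50 after the start) of 8 members were searched on both strands for a p53 half-site. This 10-base motif is only 1 part of a full p53 site. Of the members' 13 windows 1 held it, that of BAK1. The motif was present in 6.63% of 35116 windows of the same length, so its presence in 1 window is not read as a trait of BAK1. It is shown in capitals with 10 bases on each side, since p53 is the factor the study is about.
BAK1 promoter, chr6:33580330-33580359, minus strand: aaagtgggcgGGACATGCTCctgggcctgg
No match says only that the motif is not in that window, and p53 is known to act on several of these genes through sites elsewhere.

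The BH3-only members held the highest log2 ratio of the family in both libraries (BBC3) and the lowest on RPKM + 1 with si-RBCK1 #2 (PMAIP1). BBC3 (PUMA), which can bind every pro-survival member, lies on chr19:47724079-47736023 (minus strand, hg19). The si-Control library had 533 reads of it (6.89 RPKM), against 1421 reads (16.8 RPKM) in si-RBCK1 #1 and 1282 reads (16.8 RPKM) in si-RBCK1 #2. Both si-RBCK1 libraries stood well above si-Control and next to each other. The log2 ratios were 1.17 and 1.18. On reads, BBC3 was 2.43-fold and 2.44-fold the si-Control level (log2 ratios 1.28, interval 1.14 to 1.43, and 1.29, interval 1.14 to 1.44), and the si-RBCK1 libraries differed by 0.01 (-0.10 to 0.12). The microRNA gene MIR3190 lies within BBC3 on the other strand and was listed at 8.80, 2.78 and 4.82 RPKM, and MIR3191 on the same strand was listed at 0 in all 3 libraries.

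PMAIP1 (NOXA), which binds MCL1 above all, lies on chr18:57567192-57571538 (plus strand, hg19). Its 2891, 2412 and 1346 reads gave levels of 40.4, 30.8 and 19.1 RPKM, the opposite direction to BBC3. The log2 ratios were -0.38 and -1.04. On reads, PMAIP1 was at 76.2% of si-Control (log2 ratio -0.39, interval -0.47 to -0.31) and at 47.3% (log2 ratio -1.08, interval -1.17 to -0.99). The library of si-RBCK1 #2 was also lower than that of si-RBCK1 #1, at -0.69 on the log2 scale of reads (-0.78 to -0.59), the largest difference between the si-RBCK1 libraries among the 9 members that passed the filter.

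The RefSeq promoters of BBC3 and PMAIP1 are shown because these BH3-only genes, both known p53 targets, went opposite ways. Capitals mark the CCAAT box (CCAAT, either strand) in BBC3 and the GC boxes (GGGCGG, either strand) in PMAIP1.
BBC3 promoter, GRCh38.p14, chr19:47232618-47232917, minus strand: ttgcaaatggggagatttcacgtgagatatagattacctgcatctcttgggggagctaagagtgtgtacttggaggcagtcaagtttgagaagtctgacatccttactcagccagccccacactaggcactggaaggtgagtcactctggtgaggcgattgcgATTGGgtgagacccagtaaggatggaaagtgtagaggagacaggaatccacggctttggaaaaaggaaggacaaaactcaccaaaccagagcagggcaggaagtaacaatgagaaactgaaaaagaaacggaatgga
PMAIP1 promoter, GRCh38.p14, chr18:59899746-59900045, plus strand: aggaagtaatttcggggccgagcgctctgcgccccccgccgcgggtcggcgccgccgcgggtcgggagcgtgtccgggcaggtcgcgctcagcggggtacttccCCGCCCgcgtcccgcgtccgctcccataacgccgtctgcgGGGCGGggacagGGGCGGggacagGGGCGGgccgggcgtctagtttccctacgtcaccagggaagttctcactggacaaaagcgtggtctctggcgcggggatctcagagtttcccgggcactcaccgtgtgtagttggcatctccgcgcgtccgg
The BBC3 window was 48% G and C with 1 CCAAT box and 0 GC boxes, and the PMAIP1 window was 71.3% G and C with 4 GC boxes and 0 CCAAT boxes. Of the members' 13 windows, 5 of which belong to BID, 9 held a GC box (in BCL2L1, BAX, BAK1, BID, PMAIP1 and BCL2L11) and 4 a CCAAT box (in BAX, BAK1, BBC3 and BCL2L11). Of all 35116 windows, 45.0% held a GC box and 34.6% a CCAAT box. These letters do not show use of a promoter in Caki-1 cells.

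BID and BCL2L11 went opposite ways in the si-RBCK1 libraries. BID, the BH3-only protein that is cleaved by caspase-8 and links death receptors to mitochondria, lies on chr22:18216906-18257431 (minus strand, hg19). Levels of 14.4, 13.5 and 15.3 RPKM came from 1410, 1449 and 1475 reads, and the log2 ratios were -0.09 and 0.08. Both intervals on reads hold 0 (-0.20 to 0.01 and -0.02 to 0.19), so no difference from si-Control was detectable at this depth, while the reads of si-RBCK1 #2 over si-RBCK1 #1 gave 0.18 (0.07 to 0.29).

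BCL2L11 (BIM), which binds all pro-survival members and activates BAX, lies on chr2:111878491-111926022 (plus strand, hg19). Levels of 1.73, 1.60 and 2.31 RPKM came from 397, 401 and 521 reads, and the log2 ratios were -0.07 and 0.28. On reads the ratios were -0.12 (-0.32 to 0.09) and 0.42 (0.22 to 0.61). Only si-RBCK1 #2 was apart from si-Control beyond counting error, and it exceeded si-RBCK1 #1 by 0.53 (0.34 to 0.72). Among the members with a seed site of 1 siRNA alone, PMAIP1 and BCL2L11 were lower in the library of that siRNA than in the other, and BID and BAK1 were higher. BIM is made in several spliced forms that a gene-level value does not separate.

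BIK, a BH3-only protein of the endoplasmic reticulum, lies on chr22:43506754-43525718 (plus strand, hg19). It was the only member below the filter, at 0.625, 0.701 and 0.433 RPKM from 22, 27 and 15 reads. Its read ratios of 0.16 (-0.70 to 1.05) and -0.53 (-1.58 to 0.48) leave room for a rise or a fall, and no difference was detectable at this depth.

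**Figure D2:**
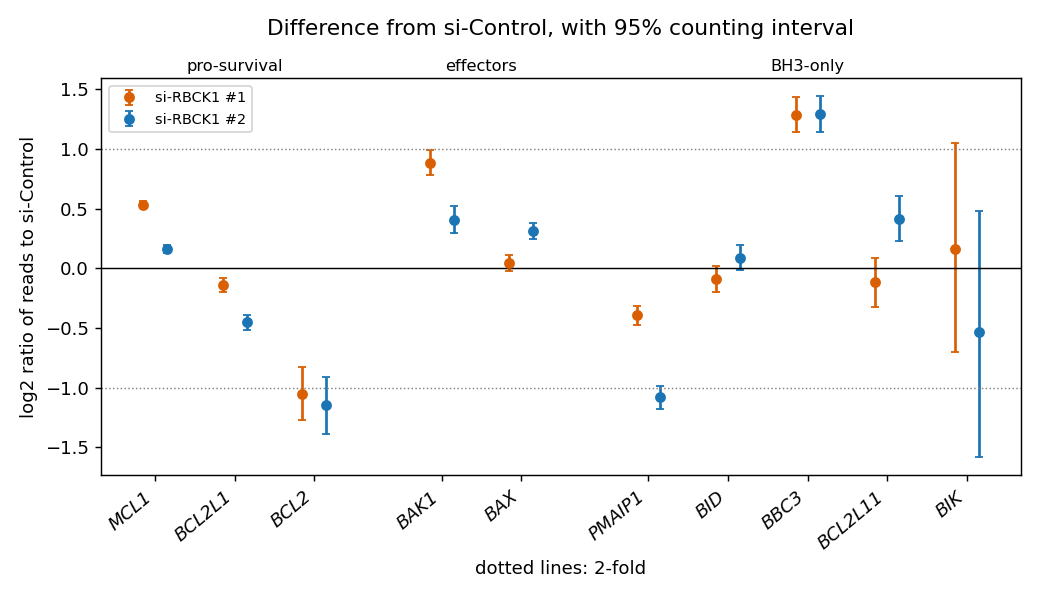
Log2 ratio of reads to si-Control, by si-RBCK1 library (reads scaled by library total, without pseudocount) for the 10 genes, with bars for the 95% counting interval and dotted lines at 2-fold. BBC3 is at 1.28 and 1.29, BCL2 at -1.05 and -1.15 and PMAIP1 at -0.39 and -1.08. The point of BAX with si-RBCK1 #1 (0.05) becomes negative with libraries scaled to equal totals.

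Summed by role over the 10 members alone, the pro-survival transcripts came to 126, 160 and 125 RPKM (1.27-fold and 0.989-fold of si-Control). The share of MCL1 in this sum was 67.6%, 77.3% and 76.5%, so in both si-RBCK1 libraries more of the sum was MCL1. The effectors summed to 238, 380 and 309 RPKM (1.60-fold and 1.30-fold) as listed. With BAK1 at the longer length the sums were 85.7, 99.6 and 107 RPKM. The listed fold with si-RBCK1 #1 rests on BAK1, since BAX alone gave 1.03-fold and the longer length gave 1.16-fold. With si-RBCK1 #2 the fold changed little, at 1.24-fold for BAX alone and 1.25-fold at the longer length. The 5 BH3-only members summed to 64.0, 63.3 and 54.0 RPKM (0.989-fold and 0.843-fold). Within that sum, the share of PMAIP1 was 63.1%, 48.6% and 35.4%, and the share of BBC3 was 10.8%, 26.5% and 31.2%. The BH3-only sum with si-RBCK1 #1 was thus close to that of si-Control while its make-up had shifted from PMAIP1 toward BBC3. A sum of RNA levels is not a sum of proteins.

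**Figure D3:**
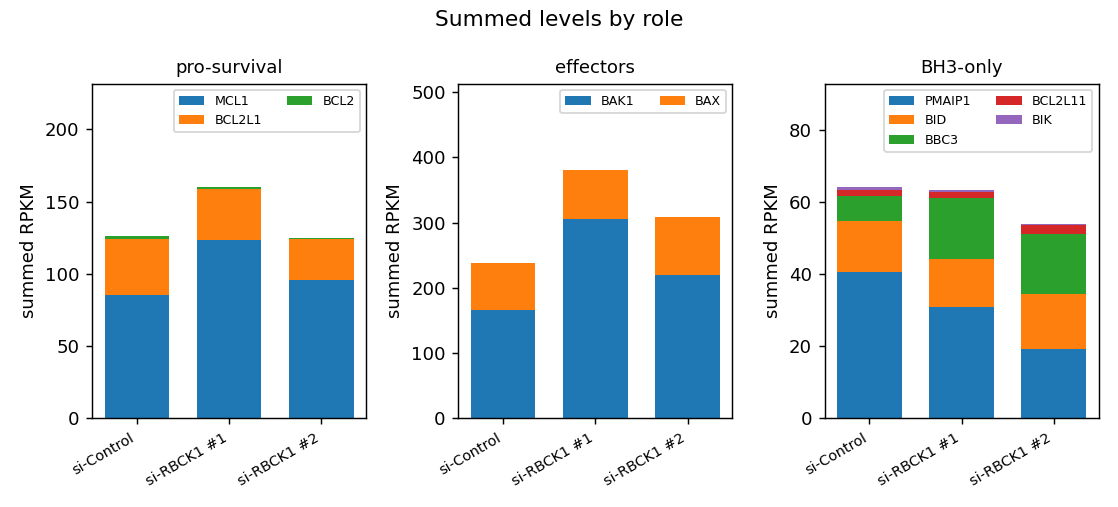
Summed RPKM of the pro-survival, effector and BH3-only members in each library (stacked bars from 0, 1 colour per gene, no error bars, since there was 1 library per condition). The BH3-only bars stand at 64.0, 63.3 and 54.0 RPKM with a larger BBC3 part and a smaller PMAIP1 part in both si-RBCK1 libraries than in si-Control, and the BAK1 part of the effectors is drawn as listed.

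Of the 9 members that passed the filter, 4 were higher in both si-RBCK1 libraries (BBC3, MCL1, BAK1 and BAX, the last not with equal totals), 3 were lower in both (PMAIP1, BCL2L1 and BCL2) and 2 went opposite ways. Among all 12403 genes compared, 43.3% were higher in both and 38.2% lower in both. The members' median log2 ratio was -0.07 with si-RBCK1 #1 and 0.16 with si-RBCK1 #2, beside 0.02 and 0.03 over all genes, and the first turned to 0.0448 when only members with a mean of at least 5 RPKM were used. At 2-fold, 1 of 9 members (BBC3) passed with si-RBCK1 #1, where 6.18% of all genes did. With si-RBCK1 #2, 2 of 9 passed (BBC3 and PMAIP1), against 4.76% of all genes, and in both libraries in the same direction 1 of 9 (BBC3), against 2.87%. At 1.5-fold, 3 of 9 passed with si-RBCK1 #1 (BAK1, BBC3 and BCL2), against 23.7%, and 3 of 9 with si-RBCK1 #2 (BBC3, BCL2 and PMAIP1), against 20.6%. In both libraries in the same direction 2 of 9 passed at 1.5-fold, against 13.7%. Of these, 1 was higher (BBC3, against 7.47% of all genes higher) and 1 lower (BCL2, against 6.24% lower). BCL2 passed the filter only through the si-Control library, so its place as lower in all these counts depended in part on the filter. With so few members, a difference of 1 gene moves these shares by 11.1 percentage points, and nothing is read from them about the family as a whole.

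BBC3 had the largest ratio of the family in both libraries, and its pattern was set against 10775 protein-coding genes by the distance between pairs of log2 ratios, over 2 comparisons that share si-Control. The nearest was CCDC134 (distance 0.0286), at 1.59, 4.83 and 4.98 RPKM. PIDD1, a p53-induced death-domain protein that activates caspase-2, followed (distance 0.0291) at 3.50, 9.16 and 9.38 RPKM, and then HSPE1, the mitochondrial chaperonin subunit, at 35.6, 83.5 and 82.0 RPKM (distance 0.0338). In all 71 genes lay within a distance of 0.2 of BBC3, and 85 exceeded it in both libraries.

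Other genes of the mitochondrial pathway were taken from lists written from general knowledge of the pathway, with 40 of 50 genes above the filter. The lists were chosen with earlier results of these data known, so their shares are a description only. Of these, 8 were at least 1.5-fold higher in both si-RBCK1 libraries and 2 at least 1.5-fold lower, where 7.47% and 6.24% of all genes were. The other BCL2 family proteins (7 of 13 used) had medians of 0.25 and 0.30 on the log2 scale. Only BCL2L12 was 1.5-fold higher in both, at 5.95, 11.2 and 11.9 RPKM (log2 ratios 0.81 and 0.89), and it overlaps IRF3 on the other strand. BNIP3, the most abundant of them, was at 83.9, 85.6 and 103 RPKM (0.03 and 0.30). The effector relative BOK was at 6.38, 9.32 and 11.2 RPKM (0.48 and 0.72), the BH3-only gene BAD at 11.9, 14.3 and 20.5 RPKM (0.25 and 0.74), and the mitophagy receptor BNIP3L at 48.02, 16.7 and 32.6 RPKM (-1.47 and -0.55).

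The 9 genes of mitochondrial release and the apoptosome, all above the filter, had medians of 0.28 and 0.36. Of these, 8 were higher with si-RBCK1 #1 and 6 with si-RBCK1 #2, where 51.5% and 53.5% of all genes were higher. APAF1, the scaffold of the apoptosome, was at 2.95, 5.75 and 5.79 RPKM (log2 ratios 0.77 and 0.78), and ENDOG, a mitochondrial nuclease, at 2.55, 6.20 and 8.48 RPKM (1.02 and 1.42). VDAC1, a channel of the outer membrane and the most abundant gene of this list, was at 180, 298 and 262 RPKM (0.73 and 0.54). CYCS, which encodes cytochrome c, was at 35.9, 37.8 and 31.4 RPKM (0.07 and -0.19). The 7 caspases had medians of 0.61 and 0.36, and 6 of 7 were higher in each library. CASP2 was at 5.66, 10.6 and 13.1 RPKM (0.80 and 1.08), CASP6 at 5.02, 9.75 and 8.30 RPKM (0.84 and 0.63) and CASP10, an initiator at death receptors, at 1.82, 3.30 and 3.42 RPKM (0.61 and 0.65). CASP8, the initiator that cleaves BID, had the highest level of the caspases, at 14.7, 21.99 and 18.6 RPKM (0.55 and 0.32). CASP9, the initiator that APAF1 recruits, was at 1.98, 3.56 and 2.83 RPKM (0.62 and 0.36), past 1.5-fold with si-RBCK1 #1 alone.

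The inhibitors of apoptosis (5 of 6 above the filter) had medians of -0.04 and -0.14, and 2 of 5 were higher in each library. BIRC5 (survivin), which also acts in cell division, was the only one 1.5-fold higher in both, at 31.9, 51.4 and 50.9 RPKM (log2 ratios 0.67 and 0.66), while XIAP, which inhibits caspases directly, was at 14.7, 9.64 and 12.9 RPKM (-0.56 and -0.18). The enzymes that control turnover of BCL2 proteins (5 of 6) had medians of -0.20 and -0.11. USP9X, a deubiquitinase that stabilizes MCL1, was the only one 1.5-fold lower in both, at 35.4, 19.7 and 23.1 RPKM (-0.82 and -0.60), and HUWE1, a ubiquitin ligase of MCL1, was at 49.5, 47.5 and 50.0 RPKM (-0.06 and 0.02). The transcription factors known to act on these genes (7 of 9) had medians of -0.19 and -0.18. MYC had the highest level, at 143, 124 and 126 RPKM (-0.20 and -0.18). E2F1, which acts on BH3-only genes, was at 7.83, 20.2 and 18.6 RPKM (1.26 and 1.15). DDIT3 (CHOP), a stress factor, was at 117, 59.8 and 76.4 RPKM (-0.96 and -0.61). It overlaps MARS on the other strand, over chr12:57910371-57910438 (hg19) alone, and MARS was at 93.3, 40.4 and 40.8 RPKM. ATF4, which is known to raise PMAIP1 under stress, was at 134, 110 and 96.0 RPKM (-0.28 and -0.48). These are RNA levels and say nothing of protein.

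**Figure D4:**
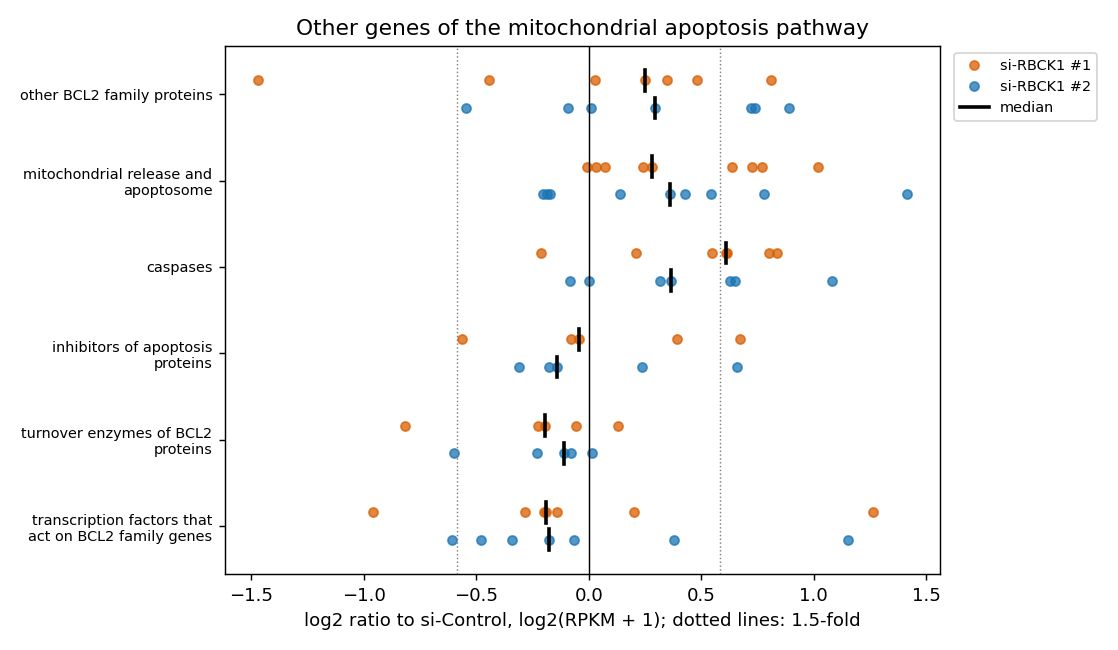
Log2 ratios on RPKM + 1 of the other mitochondrial apoptosis genes above the filter, by list, with 1 point per gene and library, a bar at each median and dotted lines at 1.5-fold. The caspases have medians of 0.61 and 0.36 and the transcription factors -0.19 and -0.18.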

How the data were processed

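RNA-seq of 3 Caki-1 libraries was examined. Per the labels, ribosomal RNA was removed, a directional kit was used and libraries were sequenced paired-end. Strand use in counting is not stated. The submitters' processing notes name TopHat2, FastQC, Trimmomatic, HTSeq and hg19, and the annotation is not given in the sources used here. The authors deposited 1 RPKM value per gene and library. The table also holds the authors' own fold changes and p-values, which were not used. The member list came with a caution about BAK1, so its levels were checked by length and reads.

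Log2 ratios were taken on RPKM + 1, and genes whose mean over the libraries was under 1 RPKM were left out. Library totals were found from RNAs of up to 200 nt. Lengths of up to 50000 nt were searched for whole reads, found for 12388 of 12403 genes (99.9%). The smallest such length was used, so read numbers are lower limits. Intervals (95%, exact Clopper-Pearson for ratios and exact Poisson for levels, scipy 1.17.1) cover counting error only. No p-value was computed, since each condition had 1 library. Read recovery, fold calls and counting intervals were tried on simulated reads with planted changes larger than the 2-fold limit. Those reads held counting error alone, without spread between libraries, and the other steps were not tried this way. The text names RBCK1, every member, pseudogenes of members and some genes overlapping members. RNAs overlapping MCL1, BID and BCL2 were below 1 RPKM in every library and are not named. In each list, the most abundant gene and those 1.5-fold changed in both libraries are named. So are the 3 genes nearest to the most changed member other than BAK1. Other list genes were picked after their values were seen. Members and lists were chosen with earlier results of these data known. MARCHF5 was matched by its Entrez number, since it was listed under a date. Alternatives were other scalings, pseudocounts, filters and BAK1 left out. Sequences came from RefSeq (promoters, 8 of 10 members), GENCODE v29 and the siRNA list of the study. The values of some list genes are not reported here.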

Additional observations from a re-analysis of the deposited data

Results flagged for a closer look

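BID and BCL2L11 were noted because the si-RBCK1 libraries lay on opposite sides of si-Control. The log2 ratio of BID was -0.0857 with si-RBCK1 #1 and 0.0824 with si-RBCK1 #2. That of BCL2L11 was -0.0729 and 0.277. With 1 library per siRNA, the difference between the siRNAs was not tested. On reads, si-RBCK1 #2 over si-RBCK1 #1 gave 0.18 (counting interval 0.07 to 0.29) for BID and 0.53 (0.34 to 0.72) for BCL2L11.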

How the results depend on the processing

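No paired analysis was possible because there was a lone library per condition. The alternatives that use reads alone or BAK1 at the longer length were chosen after seeing the data. Of the single-member ratios under alternatives, 91 shifted from the reported ratio by no more than the distance from the middle of the counting interval to its end, and 11 shifted by more. Signs changed for BAX with si-RBCK1 #1 (-0.011 with equal totals) and for the members' median with si-RBCK1 #1, from -0.0729 to 0.0448 with a mean of at least 5 RPKM (-0.014 with no filter). BCL2 depended on the pseudocount, with log2 ratios of -0.979 and -1.07 at 0.1 RPKM and -0.23 and -0.245 at 5 RPKM. With 5 RPKM, 0 members were 2-fold changed with si-RBCK1 #1, with si-RBCK1 #2 or in both (0 each), and 1 was 1.5-fold changed in both, as it was with a mean of at least 5 RPKM, since BCL2 then does not pass. The members' median with si-RBCK1 #2 became 0.119 (5 RPKM), 0.111 (equal medians), 0.122 (no filter) and 0.122 (without BAK1).

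Among the lists, other BCL2 proteins without a filter had medians of 0.0281 and 0.00158, since genes near 0 RPKM then count. With si-RBCK1 #2, mitochondrial release became 0.285 (5 RPKM) and 0.249 (mean of at least 5 RPKM), and the transcription factors -0.226 (equal medians), -0.0678 (no filter) and -0.122 (mean of at least 5 RPKM). With si-RBCK1 #1, the caspases became 0.819 (0.1 RPKM) and 0.296 (5 RPKM), the inhibitors of apoptosis -0.0986 (equal totals) and the transcription factors -0.0989 (5 RPKM). For the sums, equal totals gave log2 ratios of 0.283 and -0.0485 (pro-survival) and -0.0724 (BH3-only, si-RBCK1 #1), and equal medians -0.0662 (pro-survival, si-RBCK1 #2). The effectors with si-RBCK1 #1 were 0.0455 without BAK1 and 0.218 at its longer length. Where the construction does not show the cause, the cause was not tested.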
